A study of Salmo salar with 79 samples.

Results

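The non-collagen genes of matrix, growth and differentiation were followed in the healing skin of Atlantic salmon (Salmo salar) post-smolts. They are 102 of the 14841 probes of a 15k oligonucleotide array. They were chosen from the supplementary gene list of the study, by its tissue categories, leaving out its collagens and its secretory and mucus genes, keratins and periplakin. A probe had entered that list because it differed between high fish density (HFD) and control at 1 or more time points, so the differences between densities are given here as a description, with no test. The tested comparison is that of wounded with intact skin, with both densities averaged, which was no part of the choice. By their names the members were 14 matrix proteins, 12 adhesion and cell surface proteins, 15 growth factors and related proteins, 19 transcription factors and signalling proteins and 11 other differentiation genes. The list also held 9 blood and plasma proteins, 10 sugar-transfer and pigment genes and 12 genes named after nerve, so that its working name covers most but not all of them.

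Fish were wounded with a skin punch, and 5 HFD fish and 5 control fish were taken on each of 7 days post wounding (dpw). The early times were 1, 3, 7 and 14 dpw and the late times 36, 43 and 57 dpw. The fish marked 0 dpw gave intact skin, 4 from HFD and 4 from control. HFD fish were stocked at 100 kg/m3 and control fish at 20 kg/m3, with each group in 1 tank whose density moved after stocking, so that tank and density cannot be told apart. The fish were otherwise of 1 kind, those of 1 to 57 dpw all wounded in the same way and those of 0 dpw taken before wounding. Each array held the RNA of a single fish.

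A skin wound in salmon is first covered by migrating epidermal cells and then filled by a repair tissue. In that tissue a provisional matrix rich in fibronectin is later replaced by fibrous dermis, in which collagen fibres are bound by smaller matrix proteins and cross-linked by lysyl oxidase. Cells hold on to the matrix through integrins. Ligands of the epidermal growth factor receptor, Wnt and Notch signals and transcription factors of the C/EBP family are known as regulators of growth and differentiation in skin.

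Levels are log2 values of the background-corrected signal, with the 75th percentile of each array set to 0, so that a unit is a doubling. They compare the same probe between fish, not a probe with another. The 75th percentile signal of the 79 arrays was 254.0 to 1066 and 60.1% to 94.5% of probes were well above background. Arrays of 0 to 14 dpw and arrays of 36 to 57 dpw were scanned in separate campaigns, so for the 3 late times the campaign and the change from intact skin cannot be told apart. The late arrays of 1 slide were scanned on another day than the other late arrays. Intact skin of HFD fish and of control fish lay on different slides, so there slide and density cannot be told apart. The median over all probes tested was itself below intact skin at each time, by 0.15 to 0.25, and the changes below are not corrected for it. In bulk skin, fewer cells of a type and less RNA per cell cannot be told apart. The supplementary list has 7 probes matched to keratin or periplakin by name and taken as markers of epidermis. Among them is a probe named keratin-associated protein 10-2 or muscle derived taxillin, so their mean need not measure epidermis alone. The mean level of the 7 was 2.16 to 2.87 in intact HFD skin and 2.18 to 2.44 in intact control skin. At 43 dpw their mean level was 1.83 to 2.48 in HFD fish and 1.70 to 2.50 in 4 control fish, but -0.90 in control fish 1. That fish was more than 2 units below every other control fish of its day in 17 members, and the changes and differences of single members at 43 dpw are given with and without it.

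Wounding changed most of the members within the first day. At 1 dpw 48 members rose and 31 fell against intact skin, of 102 tested, where 20.5% of all probes tested rose and 35.1% fell (limma, Benjamini-Hochberg adjusted p under 0.05 over all probes). At 3 dpw 43 rose and 37 fell, against 25.3% and 38.5% of all probes. At 7 dpw 39 rose and 31 fell, with 23.1% and 34% over all probes. At 14 dpw the counts were 33 and 29, with 22.8% and 32.4% over all probes. The members that rose include angiotensinogen at each of these 4 times, for which no test is given below. The share that rose was above that of all probes at these 4 times here and with quantile normalization or normexp, but in the value table deposited by the authors the 45.1% and 46.1% of members that rose at 7 and 14 dpw were below the 49.6% and 47.6% of all probes. The share that fell was below that of all probes here and, with quantile normalization, above it at each of the 4 times, so that its side depended on the scaling. At 36, 43 and 57 dpw 30, 28 and 23 members were higher than intact skin and 24, 28 and 29 lower, over shares of 23.2%, 21% and 21.1% higher and 38.1%, 38% and 37% lower. Of the members called at 1, 3, 7 and 14 dpw, all 79, 80, 70 and 62 had the same sign of change in HFD fish and in control fish taken apart. At 43 dpw 55 of 56 did. The members were called on the average of these same fish, so the shared sign is no independent evidence. Leaving out control fish 1 at 43 dpw gave 32 members higher and 24 lower. In the table of the authors, where the median of all probes stood 0.93 to 0.97 above intact skin at the late times, 61, 62 and 53 members were higher and 8, 8 and 7 lower at 36, 43 and 57 dpw.

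**Figure D1:**
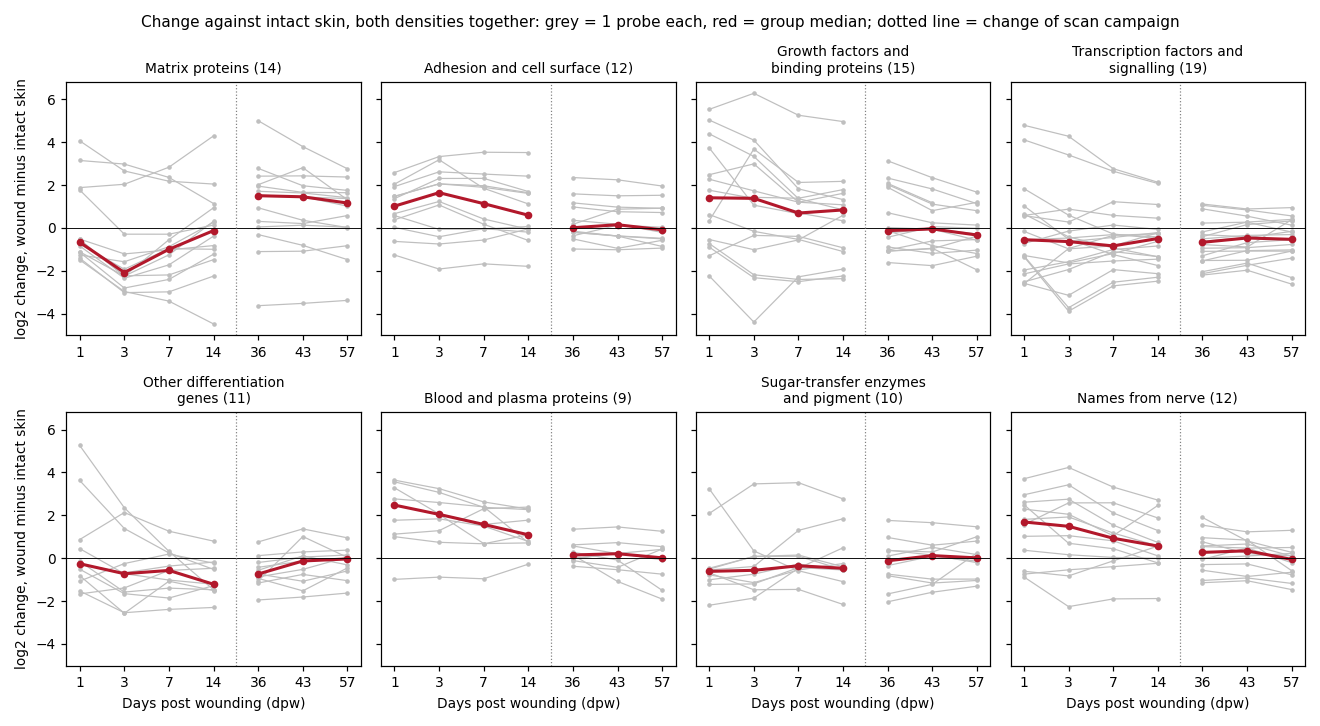
Log2 change of each of the 102 members against intact skin (vertical axis) at 1 to 57 dpw (horizontal axis), both densities together, in 8 panels by role. Grey lines are single probes, the red line is the median of the group, and the dotted line marks the change of scan campaign. The median of the matrix proteins is lowest at 3 dpw, at -2.08, and is above 0 from 36 dpw on.

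The matrix proteins as a group were lowest at 3 dpw, when 10 of 14 had fallen, 3 had risen and the median change was -2.08. The median change was -0.67 at 1 dpw and -0.12 at 14 dpw, and at 36 dpw 9 of 14 were above intact skin, with a median of 1.50. The 11 collagens of the same supplementary list had medians of -1.31, -2.28, -1.85 and -0.34 at 1, 3, 7 and 14 dpw, and 0.62 at 36 dpw. Its 7 proteases ran the other way, with medians of 6.41, 7.18, 4.86 and 3.24 and all 7 raised at each of these times. In intact skin 1 of the 7 was well above background on no HFD array, and 1 on no control array. A protease this dim in intact skin met the filter on dim probes through the wounds, so its rise is no evidence. Over all probes tested the median was -0.23 at 3 dpw, when 38.5% fell and 25.3% rose, and at 36 dpw 23.2% were higher. The collagens and proteases were listed by the study on these same fish, so their counts are no independent evidence.

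Fibronectin, the main glycoprotein of the provisional matrix, and thrombospondin-1 were the matrix genes above intact skin at every time. The fibronectin level in wounds was -0.49, 0.34 and 0.92 (lowest, median and highest of 10 fish) at 1 dpw, against -2.15, -1.83 and -0.79 in the 8 fish with intact skin. At 14 dpw it was 1.07, 2.81 and 3.63, and at 36 dpw 1.37, 3.50 and 4.49. All 10 wounded fish were above all 8 intact fish at 1, 7 and 14 dpw, and 9 of 10 at 3 dpw. The change was 1.88 ± 0.32 (± standard error) at 1 dpw, 2.83 ± 0.32 at 7 dpw and 4.29 ± 0.32 at 14 dpw (adjusted p = 2.9e-18 at 14 dpw). At 36, 43 and 57 dpw it was 5.00, 3.79 (3.71 without control fish 1) and 2.76. Between 36 and 57 dpw, of the same campaign but not all scanned on the same day, fibronectin fell by 2.24 ± 0.30 (adjusted p = 1.1e-06).

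Periostin, SPARC, protein-lysine 6-oxidase, mimecan and serine protease HTRA1 followed another course. Periostin and SPARC are matrix-associated proteins that bind collagen, protein-lysine 6-oxidase is the lysyl oxidase that cross-links it, mimecan is a small leucine-rich proteoglycan and HTRA1 is a secreted protease that cleaves matrix proteins. Periostin stood at -1.16, -0.46 and 0.39 in the 3 dpw wounds, against 1.21, 1.94 and 2.34 in intact skin. SPARC stood at 0.39, 1.40 and 2.47 in 3 dpw wounds, against 2.27, 3.98 and 4.24 in intact skin. The groups did not overlap for periostin, and for SPARC the highest wounded fish passed only the lowest intact fish. All 5 genes fell at 1, 3 and 7 dpw, but in the value table of the authors periostin at 1 dpw (-0.34) and HTRA1 at 7 dpw (-0.22) did not pass the test. At 3 dpw the changes were -2.23 ± 0.25 for periostin, -2.25 ± 0.21 for SPARC, -2.35 ± 0.25 for protein-lysine 6-oxidase, -2.80 ± 0.33 for mimecan and -1.58 ± 0.20 for HTRA1 (largest adjusted p = 5.6e-10). At 14 dpw periostin (-1.48) and mimecan (-1.22) were still below intact skin, while SPARC (0.31), HTRA1 (0.26) and protein-lysine 6-oxidase (-0.38) did not pass the test. Mimecan at 14 dpw, at -0.68, did not pass in the value table of the authors. At 36 dpw all 5 were above intact skin, by 0.94, 1.53, 1.71, 2.41 and 1.95 in the order of the 3 dpw values. SPARC then stood at 4.77, 5.29 and 5.50, above every intact fish. Between 36 and 57 dpw periostin fell by 0.92 ± 0.21 (adjusted p = 0.0033), and the changes of the other 4, from -0.31 to -0.04, did not pass the test.

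**Figure D2:**
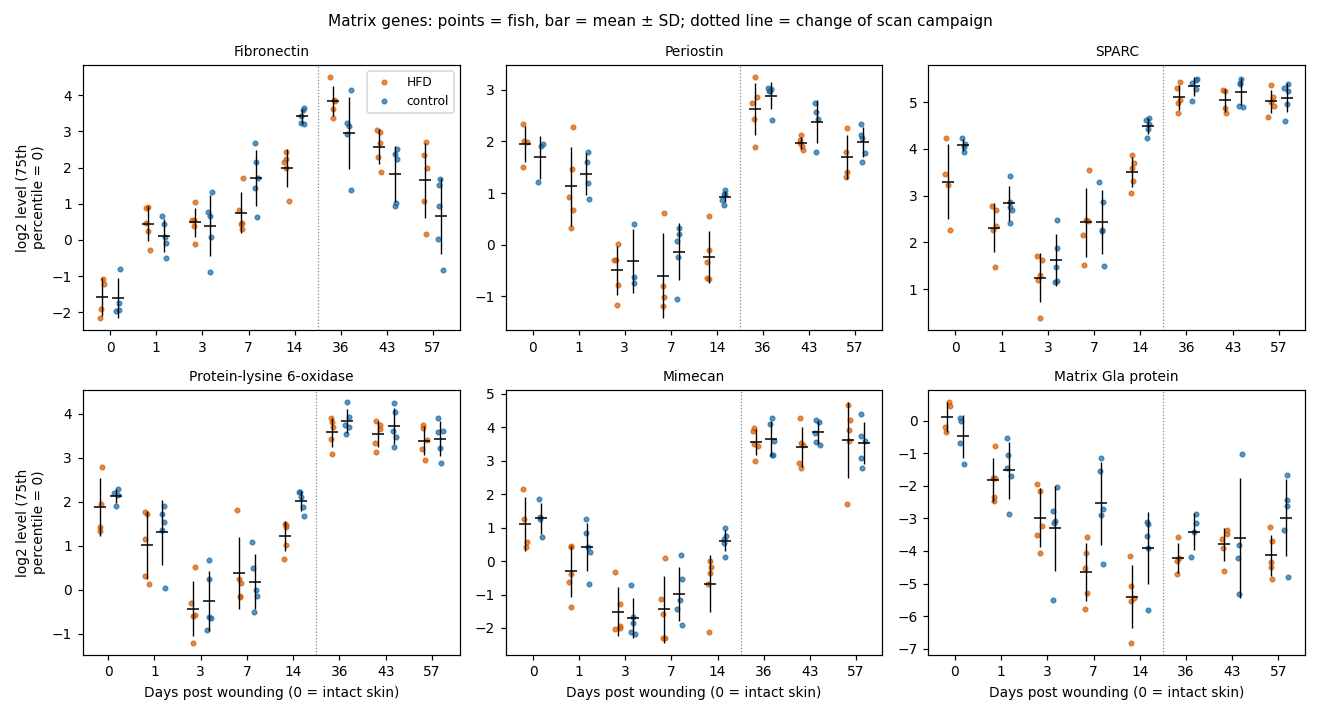
Log2 level (vertical axis, 75th percentile of the array at 0) of 6 matrix genes in each fish at 0 to 57 dpw (horizontal axis), HFD left and control right, with mean and SD as bars. Fibronectin is above intact skin from 1 dpw on, matrix Gla protein has a lower mean throughout, and the other 4 genes dip at 3 and 7 dpw. At 14 dpw the HFD and control points of all panels except matrix Gla protein do not overlap.

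Matrix Gla protein, an inhibitor of calcification, fell and stayed low. Its level was -6.82, -4.61 and -3.11 in 14 dpw wounds, against -1.32, -0.09 and 0.57 in intact skin, with every wounded fish below every intact fish. The change was -1.49, -2.96, -3.41 and -4.48 at 1, 3, 7 and 14 dpw (SE 0.45 and adjusted p = 8.4e-13 at 14 dpw), and still -3.38 at 57 dpw. EGF-like domain multiple 6, a protein named for its EGF repeats, was at -3.02 and -2.98 at 3 and 7 dpw and at 0.30, not past the test, at 36 dpw. Laminin subunit beta-4, a chain of a basement membrane protein, fell by 1.93 ± 0.42 at 3 dpw. At 43 dpw its change was -1.09 with all fish and -0.30 without control fish 1, when it no longer passed the test.

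Another 3 matrix genes rose at 1 dpw. Thrombospondin-1, a matricellular glycoprotein, was at 0.86, 1.37 and 1.81 in 1 dpw wounds, against -3.30, -2.67 and -2.39 in intact skin, an increase of 4.06 ± 0.25 (adjusted p = 5.3e-22). It remained raised by 2.66, 2.18 and 2.04 at 3, 7 and 14 dpw. Hyaluronidase-2, which cuts the polysaccharide hyaluronan, rose by 3.15, 2.98, 2.35 and 1.14 and was at 0.04 at 36 dpw, not past the test. Connective tissue growth factor, a matricellular protein of repair tissue, rose by 1.77 ± 0.19 at 1 dpw, was at -0.29, -0.29 and 0.13 at 3, 7 and 14 dpw, not past the test, and was above it by 1.47 at 36 dpw.

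Of the 12 adhesion genes 7, 8, 6 and 6 rose and 1, 1, 1 and 2 fell at 1, 3, 7 and 14 dpw, with a median change of 1.01, 1.64, 1.13 and 0.59. Over all probes 20.5%, 25.3%, 23.1% and 22.8% rose and 35.1%, 38.5%, 34% and 32.4% fell. Integrin beta-1, the subunit shared by most matrix-binding integrins, was at 5.66, 6.11 and 6.39 in 3 dpw wounds, against 3.49, 3.62 and 4.71 in intact skin. Its increase was 1.36 ± 0.21, 2.31 ± 0.21, 2.31 ± 0.22 and 1.70 ± 0.21 at 1, 3, 7 and 14 dpw (adjusted p = 1.4e-14 at 3 dpw), and at 36 and 57 dpw the values of 0.35 and -0.21 did not pass the test. Integrin beta-3, part of receptors for fibronectin and other ligands, was at 2.66, 3.42 and 3.99 in 3 dpw wounds and -0.18, 0.24 and 0.80 in intact skin, a rise of 3.18 ± 0.28.

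Integrin beta-2 and coronin-1A, both typical of leukocytes, stayed above intact skin to the end. Integrin beta-2 rose by 1.93, 2.61, 2.51 and 2.41 in the first 4 times and was still up by 1.52 ± 0.16 at 57 dpw, when all 10 wounded fish were above all 8 intact fish. The 2 probes of coronin-1A rose by 2.05 and 2.05 at 3 dpw and by 0.72 and 0.91 at 57 dpw. Over the 5 leukocyte marker probes of the supplementary list, these 3 among them, the mean level at 3 dpw was 1.22 to 2.19 in HFD fish and -0.31 to 0.82 in control fish, against -1.51 to -0.47 in intact HFD fish and -0.85 to -0.62 in intact control fish, and all 5 rose at 1, 3, 7 and 14 dpw. Of all probes 20.5%, 25.3%, 23.1% and 22.8% rose at these times. At 36, 43 and 57 dpw 4 of the 5 were above intact skin, where 23.2%, 21% and 21.1% of all probes were higher. The lowest of the 5 was then at -0.19, -0.88 and -0.18 with all fish, below intact skin past the test at 43 dpw alone. The part of leukocytes in the changes of other members was not tested. Gap junction beta-6 protein, a connexin, rose by 2.58, 3.33, 3.53 and 3.51 and stood at 1.95 above intact skin at 57 dpw. Nexilin, an actin-binding protein known best from muscle, fell by 1.26, 1.92, 1.68 and 1.79.

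Among growth factors and related proteins 9 of 15 rose and 4 fell at both 1 and 3 dpw. The 9 include angiotensinogen, for which no test is given below. Over all probes 20.5% rose and 35.1% fell at 1 dpw, and 25.3% rose and 38.5% fell at 3 dpw. The ligands of the epidermal growth factor receptor gave large early changes. Epigen was at 5.29, 5.79 and 6.51 in 1 dpw wounds, against -0.14, 0.84 and 1.86 in intact skin, with no overlap, an increase of 5.03 ± 0.59 (adjusted p = 5.1e-11). At 3, 7 and 14 dpw its change was 4.09, 1.82 and 1.32. Proheparin-binding EGF-like growth factor (HB-EGF) was at -0.18, 0.70 and 1.25 in 1 dpw wounds and -4.46, -4.07 and -2.88 in intact skin, and its changes were 4.39 ± 0.44, 3.34 ± 0.44 and 1.36 ± 0.44 at 1, 3 and 7 dpw. Heparin-binding growth factor 1, a fibroblast growth factor, rose by 3.73 ± 0.27 at 1 dpw and by 1.06, 0.66 and 0.84 afterwards. At 14 dpw neither EGF receptor ligand passed the test.

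**Figure D3:**
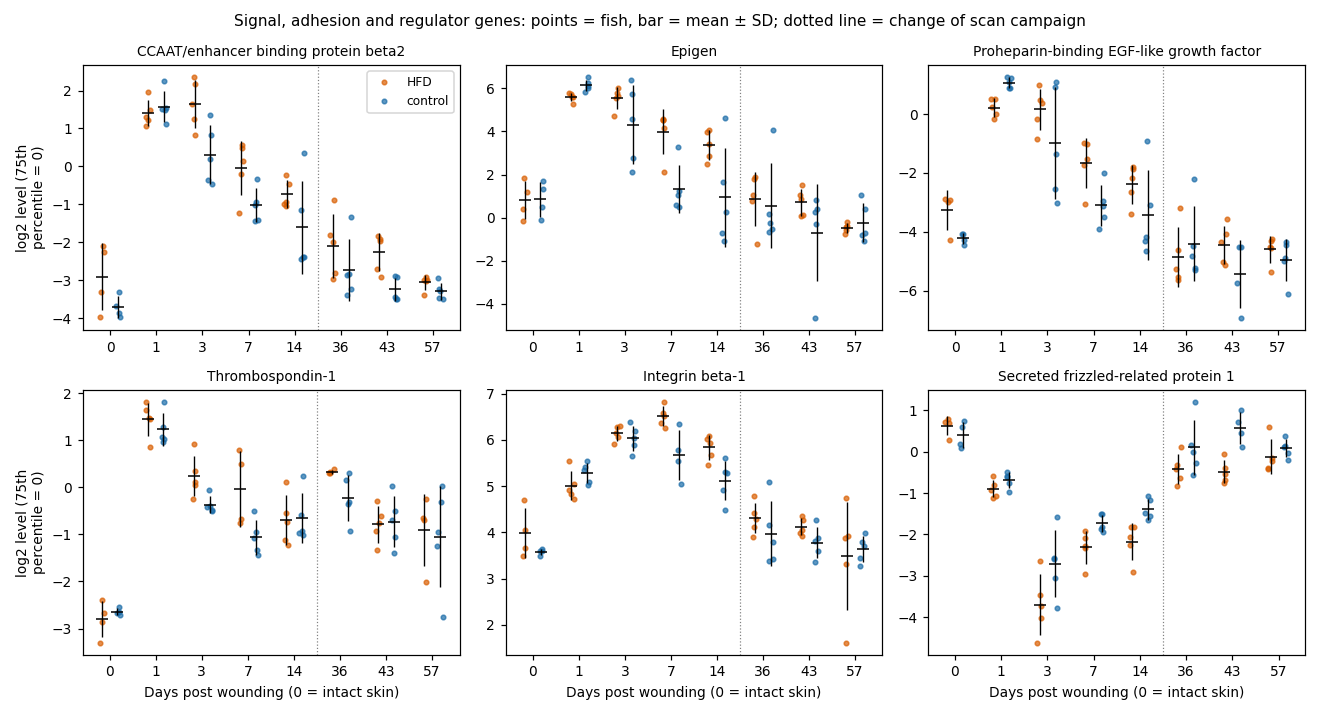
Log2 level (vertical axis, 75th percentile of the array at 0) of 6 signal, adhesion and regulator genes in each fish at 0 to 57 dpw (horizontal axis), HFD left and control right, with mean and SD as bars. In the mean of both densities C/EBP beta2, epigen, HB-EGF and thrombospondin-1 are highest at 1 dpw, integrin beta-1 peaks at 3 and 7 dpw, and secreted frizzled-related protein 1 is lowest at 3 dpw.

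The vessel factors and angiopoietin-related proteins did not move as a family. Vascular endothelial growth factor C, a factor of lymphatic and blood vessels, rose by 2.27 ± 0.19 at 1 dpw and by 1.73, 1.20 and 1.08 at the next 3 times. Angiopoietin-like 7 rose by 2.48 and 2.99, and angiopoietin-related protein 4, known from lipid metabolism, by 1.76 and 1.38. These 3 genes were above intact skin while others of the group were below it. Angiopoietin-related protein 1 was at -6.41, -4.43 and -1.67 in 3 dpw wounds, against -0.44, 0.19 and 0.39 in intact skin, and fell by 2.24, 4.39, 2.28 and 1.92 (SE 0.38 and adjusted p = 7.1e-16 at 3 dpw). Angiopoietin-like 2 fell by 1.02 ± 0.29 at 3 dpw (-0.54, not past the test, in the value table of the authors), was above intact skin by 3.13 at 36 dpw, and fell by 1.46 ± 0.27 between 36 and 57 dpw. At 36 dpw fibronectin, angiopoietin-like 2 and thrombospondin-1 had the largest changes above intact skin among the members named here.

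Angiotensinogen, the precursor of the angiotensin peptides, and hepatocyte growth factor activator, a serine protease, are plasma proteins made mainly by liver. Angiotensinogen was well above background on all 10 arrays of 3 dpw, against 3 of the 4 HFD arrays and 0 of the 4 control arrays of intact skin. It was therefore at least 28.6-fold higher than intact skin at 1 dpw, at least 48.0-fold at 3 dpw, at least 23.6-fold at 7 dpw and at least 19.3-fold at 14 dpw. It met the filter on dim probes through the wounds alone, so no test is given for it, though the counts of members that rose include it. Here each intact array counts with the higher of its own value and its lowest signal that was well above background. Hepatocyte growth factor activator was at 0.34 at 1 dpw, not past the test, and rose by 3.68 ± 0.31 at 3 dpw. Insulin-like growth factor binding protein 6, which binds these growth factors, rose by 1.41, 1.43, 1.38 and 1.79. The 2 adiponectin probes, for a hormone of fat cells, fell by 2.19 and 2.32 at 3 dpw and by 2.37 and 2.24 at 14 dpw.

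Among the 19 transcription factors and signalling proteins 6 rose and 10 fell at 1 dpw, and 3 rose and 10 fell at 14 dpw. Of all probes 20.5% rose and 35.1% fell at 1 dpw, and 22.8% rose and 32.4% fell at 14 dpw. C/EBP beta, a factor that acts in both inflammation and skin differentiation, had the largest increases of this group, 4.79 ± 0.29 for the probe named beta2 and 4.11 ± 0.27 for the probe named beta at 1 dpw and 2.13 and 2.07 at 14 dpw. The 2 probes of C/EBP delta, a related factor, rose by 1.03 and 0.65 at 1 dpw but fell by 1.24 and 0.94 at 7 dpw and by 1.76 and 1.35 at 14 dpw. The falls at 7 dpw did not pass in the value table of the authors (-0.61 and -0.30), nor did the rise of delta-2 at 1 dpw with quantile normalization (0.57). ATF-3, a stress-responsive factor, rose by 1.83 ± 0.20 at 1 dpw and by 0.59 at 3 dpw, and at 14 dpw it was below intact skin by 0.50, which did not pass the test with quantile normalization (-0.36), normexp (-0.26) or the value table of the authors (0.06).

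Secreted frizzled-related protein 1 binds Wnt ligands outside the cell, and its 2 probes fell by 3.72 ± 0.20 and 3.88 ± 0.25 at 3 dpw (adjusted p = 2e-24 and 2.6e-21). One of them was at -4.62, -3.26 and -1.57 in 3 dpw wounds, against 0.08, 0.65 and 0.79 in intact skin, and both were still down by 2.30 and 2.48 at 14 dpw. Frizzled homolog 10, a Wnt receptor, was at -5.29, -3.78 and -2.45 in 1 dpw wounds and -1.67, -1.32 and -0.97 in intact skin, fell by 2.60 ± 0.42 at 1 dpw and by 0.96 at 3 dpw, and at 7 dpw, at -0.35, did not pass the test. Its change at 3 dpw did not pass with quantile normalization (-0.83) or in the value table of the authors (-0.48). HES-1, a target of Notch, has 2 probes that went apart. One (Ssa#S47729686) fell by 1.28, 1.63, 1.20 and 0.63 at 1 to 14 dpw, while the other (Ssa#GRASP209731345) rose by 0.58, 0.88 and 0.58 at 1 to 7 dpw. The direction for HES-1 therefore depends on the probe at these times. The fall of the first at 14 dpw did not pass in the value table of the authors (-0.07), nor the rise of the other at 1 dpw with quantile normalization (0.50).

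Other transcription factors fell early. Kruppel-like factor 11a fell by 2.58, 3.14, 1.95 and 2.13, and Iroquois homeobox protein 5 by 2.52, 1.94 and 1.34 at 1, 3 and 14 dpw. SOX-9, a factor of cartilage and hair follicle cells in mammals, fell in its 2 probes by 0.73 and 0.55 at 1 dpw, and at 3, 7 and 14 dpw neither probe passed the test. In the value table of the authors neither passed at 1 dpw, at -0.44 and -0.29. The fall of the second probe also failed the test when any one of 6 of the 18 fish compared was left out, control fish 5 of intact skin moving it most, to -0.36. Myoblast determination protein 1c, a factor of the muscle lineage, fell by 0.98 ± 0.25 at 3 dpw (-0.50, not past the test, in the value table of the authors) and was above intact skin by 1.11 at 36 dpw. In the supplementary list 13 probes were matched to muscle by name or category. Unconventional myosin-Ig and tropomodulin-3 are among them, so their mean does not measure muscle alone. At 3 dpw 4 of the 13 rose and 7 fell, where 25.3% of all probes rose and 38.5% fell. The mean level of the 13 was then -0.64 to 0.49 in HFD fish and -1.99 to -0.18 in control fish. In intact skin it was -1.18 to -0.28 in HFD fish and -0.89 to -0.17 in control fish. Their part in the change of myoblast determination protein 1c was not tested.

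Kazrin-A, a protein linked to cell junctions in skin, had a short response. It was at -0.90, 5.03 and 6.43 in 1 dpw wounds, against -2.91, -1.91 and 1.44 in intact skin, so that the groups overlapped at the low end, and rose by 5.26 ± 0.74 at 1 dpw and 2.35 ± 0.74 at 3 dpw. At 7 and 14 dpw, at 0.32 and -1.48, it did not pass the test. Anterior gradient-2-like protein 2, of a family of secretory pathway proteins, rose by 2.13 ± 0.47 at 3 dpw and 1.26 at 7 dpw.

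Of the 9 blood and plasma genes 8 rose at 1, 3 and 7 dpw, where 20.5%, 25.3% and 23.1% of all probes rose. The other one, ammonium transporter Rh type B, did not pass the test at any time with all fish, but at 43 dpw its change was -0.43 with control fish 1 and 0.63 without it, when it passed (adjusted p = 0.040). The 3 probes of hemoglobin subunit alpha-4, a chain of the oxygen carrier of red blood cells, rose by 3.64, 3.56 and 3.28 at 1 dpw and by 2.29, 2.26 and 1.77 at 14 dpw, though some fish with intact skin were as high as wounded fish. The 5 probes taken as erythrocyte markers include ammonium transporter Rh type B, which was at -0.99 at 1 dpw while the other 4 rose. Their mean level at 1 dpw was 0.10 to 1.13 in HFD fish and 0.19 to 1.90 in control fish, against -2.19 to -0.75 in intact HFD fish and -1.78 to 0.66 in intact control fish. Urokinase plasminogen activator, which starts the breakdown of fibrin and matrix, was at 4.25, 4.67 and 5.40 in 7 dpw wounds, against 1.27, 2.05 and 3.60 in intact skin, and rose by 1.12 ± 0.28, 1.28 ± 0.28, 2.31 ± 0.30 and 2.38 ± 0.28. Between 36 and 57 dpw haptoglobin and coagulation factor V fell by 2.06 ± 0.34 and 1.78 ± 0.35.

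Melanocyte protein Pmel 17, a structural protein of melanosomes and the only melanocyte marker among the named probes, was below intact skin throughout. It was at -0.58, -0.24 and 0.21 in 14 dpw wounds, against 1.48, 2.01 and 2.31 in intact skin, with no overlap. The change was -0.68 (-0.42, not past the test, in the value table of the authors), -1.47, -1.46 and -2.16 at 1 to 14 dpw (SE 0.23 and adjusted p = 5e-12 at 14 dpw), and -2.03 at 36 dpw, after which it rose by 0.73 ± 0.22 between 36 and 57 dpw (adjusted p = 0.024, against 0.17 in the value table of the authors). Among the sugar-transfer enzymes alpha-N-acetylgalactosaminide alpha-2,6-sialyltransferase 6 rose by 2.08, 3.46, 3.52 and 2.76. The enzyme beta-1,3-galactosyltransferase fell by 2.20 ± 0.20 at 1 dpw and was above intact skin by 0.48 ± 0.20 at 14 dpw.

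The genes named after nerve were not a single response either. Of 12, 9 rose at 1 dpw, when the median change was 1.69, and at 3 dpw 7 rose and 2 fell. Over all probes 20.5% rose at 1 dpw, and 25.3% rose and 38.5% fell at 3 dpw. A probe of myelin-associated glycoprotein (Ssa#S35694621) rose by 4.23 ± 0.24 at 3 dpw, while the other probe of that name (Ssa#DY699071) was at -0.54 and did not pass the test at any time. Neurofascin, an adhesion molecule of axons, rose by 1.57, 2.58, 2.58 and 1.87.

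Between 36 and 57 dpw, without the change of scan campaign, 4 of 102 members tested rose and 16 fell. Over all probes 2.94% rose and 6.2% fell. The slide scanned on another day held 1 HFD and 1 control array of 36 dpw and 1 HFD and 3 control arrays of 57 dpw. With the slide as a fixed block 5 members rose and 12 fell. Of the 16, 7 were growth factors and related proteins, among them angiopoietin-like 2 (-1.46), angiopoietin-like 7 (-1.22) and hepatocyte growth factor activator (-1.20). They also held angiotensinogen, which was well above background on 9 arrays of 36 dpw and 3 of 57 dpw, so that no size is given. Matrix genes that fell were fibronectin, periostin, thrombospondin-1 (-1.03) and Sid4 (-1.17). The 11 collagens had a median change of -0.04 over the same interval, beside 0.01 over all probes tested.

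The members had been listed for their differences between densities. By the criteria of the study, a log2 difference beyond 0.8 with an unadjusted p under 0.05, 99 of the 102 members passed at 1 or more times in the values used here. Of these, 45 were higher in HFD at each such time, 43 lower and 11 higher at one and lower at another. The share of all probes that passed at 1 or more times was not counted. The members were listed for this contrast, so nothing is read from these numbers. The member just inside the fold criterion was protein-lysine 6-oxidase at 14 dpw, at -0.80, followed by integrin beta-2 at 3 dpw, at 0.81. Neurofascin, at 0.78 at 14 dpw, lay just outside it. Dysferlin or myoferlin, at 1.08 ± 0.72, and Forkhead box protein Q1 exceeded it at 43 dpw but did not pass the criterion on p. Without control fish 1 dysferlin or myoferlin differed by 0.41, short of the fold criterion. Forkhead box protein Q1 differed by 2.19 ± 1.27 at 43 dpw, with levels of 0.31, -0.95, -1.19 and -0.17 in 4 HFD fish and -7.24, -3.22, -1.43, -0.94 and -0.64 in control fish. Its lowest value is that of control fish 1, and without that fish the difference was 1.06.

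The number of members past the criteria was largest at 3, 7 and 14 dpw. From intact skin to 57 dpw 2, 5, 21, 15, 7, 8, 13 and 4 members were higher in HFD, where 1.58%, 0.666%, 3.44%, 1.56%, 2.22%, 0.878%, 3.07% and 1.54% of all probes tested were higher. Likewise 0, 8, 10, 25, 26, 4, 6 and 2 members were lower in HFD, where 0.312%, 2.94%, 3.02%, 2.76%, 2.08%, 0.395%, 0.6% and 0.303% of all probes were lower. Either way the shares of all probes were 1.89%, 3.61%, 6.46%, 4.32%, 4.3%, 1.27%, 3.67% and 1.84%. HFD and control fish of a day did not overlap in 3, 4, 10, 10, 12, 3, 6 and 0 members, where they did not overlap in 3.86%, 1.97%, 5.61%, 4.41%, 2.9%, 0.552%, 1.48% and 0.595% of all probes measured in every fish. Since this contrast chose the members, nothing is read from these counts. Without control fish 1 the counts at 43 dpw were 14 and 6, and without HFD fish 1 of intact skin 13 members passed at 0 dpw and without control fish 4 of 36 dpw 19 passed at that time. At 1, 3, 7 and 14 dpw only 1 HFD fish and 1 control fish lay on the same slide, and in these pairs 11 of 12, 30 of 31, 38 of 39 and 32 of 33 members had the sign of the whole groups. These fish are part of the group means and the members are those past the criteria, so the shared sign is no independent evidence. With the slide as a fixed block, the difference at 1, 3, 7 and 14 dpw rests on that 1 pair alone. Its counts there are therefore not set against those of the whole groups. Apart from that pair, slide and density cannot be told apart at these times.

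**Figure D4:**
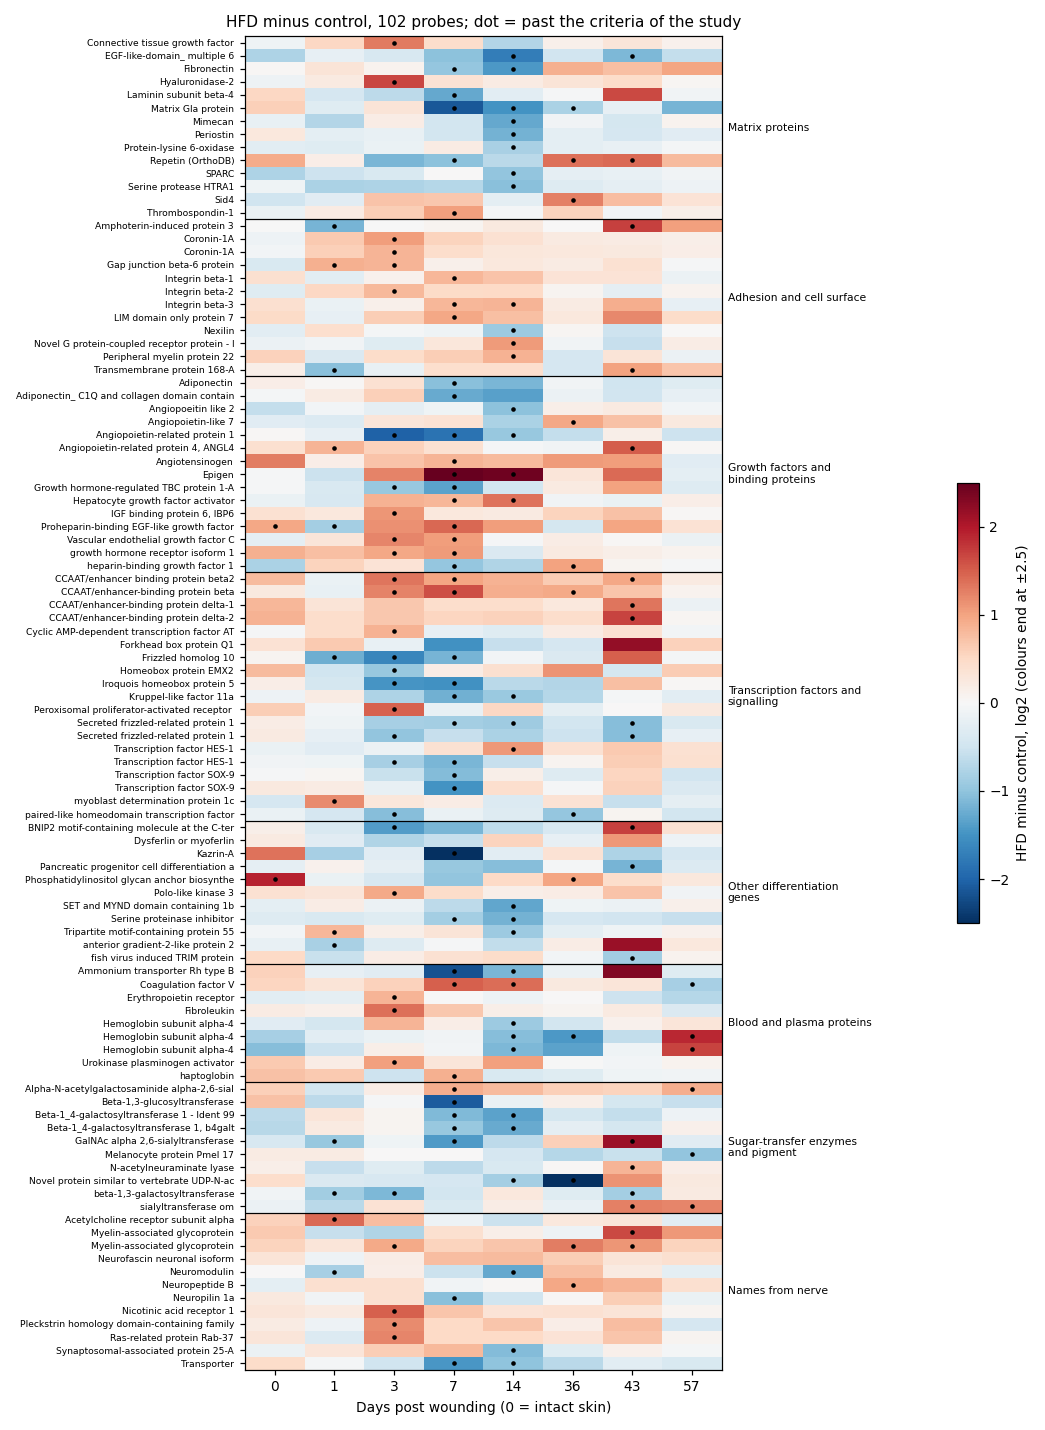
Difference of the HFD mean minus the control mean (colour, log2) for the 102 members (rows, grouped by role) at 0 to 57 dpw (columns). Red is higher in HFD, blue is lower in HFD, and a dot marks a difference past the criteria of the study, of which 31, 40 and 33 stand at 3, 7 and 14 dpw. At 14 dpw the marked matrix proteins are all blue.

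At 14 dpw 8 of 14 matrix genes were lower in HFD and none higher past the criteria, where 2.08% of all probes were lower and 2.22% higher. They were listed for this contrast, so nothing is read from the count. Only 1 HFD fish and 1 control fish of 14 dpw lay on the same slide, so slide and density are hardly told apart in these differences. Fibronectin was at 2.00, 2.16, 1.07, 2.22 and 2.43 in HFD fish, against 3.58, 3.24, 3.43, 3.19 and 3.63 in control fish, a difference of -1.44 ± 0.25. Every HFD fish was below every control fish. Periostin was at -0.10, -0.35, -0.67, -0.66 and 0.56 in HFD fish and 0.97, 0.98, 1.05, 0.87 and 0.77 in control fish, a difference of -1.17 ± 0.23. SPARC was at 3.88, 3.70, 3.05, 3.31 and 3.59 in HFD fish and 4.66, 4.42, 4.24, 4.53 and 4.63 in control fish, a difference of -0.99 ± 0.17. These groups did not overlap either. Mimecan was at -0.36, -0.19, -0.70, -2.13 and 0.01 in HFD fish, with a low value in fish 4, and at 0.98, 0.11, 0.67, 0.75 and 0.53 in control fish. HTRA1 was at -0.85, -0.97, -1.36, -1.74 and -0.77 in HFD fish and 0.15, -0.10, -0.15, -0.35 and 0.04 in control fish. Protein-lysine 6-oxidase was at 1.50, 1.47, 1.02, 0.70 and 1.42 in HFD fish and 2.21, 1.89, 1.69, 2.10 and 2.23 in control fish. The differences of these 3 were -1.28, -1.05 and -0.80, and in each the HFD fish lay below all control fish. Angiopoietin-like 2 behaved in the same manner, at 0.64, 0.50, 0.27, 0.36 and 0.82 in HFD fish and 1.59, 1.36, 1.41, 1.63 and 1.74 in control fish. Not overlapping at 14 dpw were 12 members, where 2.9% of all probes measured in every fish did not overlap. Of the 11 collagens, listed for the same contrast, 10 were lower in HFD past the criteria at 14 dpw, with a median difference of -1.03.

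The same 6 matrix genes differed less at 7 and 36 dpw. At 36 dpw the differences were 0.88 for fibronectin, -0.25 for periostin, -0.23 for SPARC, -0.09 for mimecan, -0.31 for HTRA1 and -0.25 for protein-lysine 6-oxidase, none past the criteria. At 7 dpw fibronectin differed by -0.97 ± 0.43, which passed, and the others by -0.72 to 0.20, which did not. Matrix Gla protein was at -5.28, -4.07, -3.58, -5.79 and -4.52 in HFD fish at 7 dpw, against -1.14, -2.88, -1.54, -4.40 and -2.70 in control fish, a difference of -2.11 ± 0.70 with overlap, and its differences at 14 and 36 dpw were -1.49 and -0.80. Against intact skin of the same density, fibronectin had changed by 3.56 in HFD fish and 5.02 in control fish at 14 dpw, SPARC by 0.21 in HFD fish and 0.42 in control fish, and periostin by -2.20 in HFD fish and -0.76 in control fish. The intact skin of the 2 densities lay on different slides, so these changes also hold any difference between slides.

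At 3 and 7 dpw the differences ran in both directions. Frizzled homolog 10 was the only member whose HFD and control fish did not overlap at 3 times. Its levels at 1 dpw were -4.46, -3.80, -5.29, -4.07 and -4.89 in HFD fish, against -3.37, -3.75, -3.45, -2.45 and -3.38 in control fish. At 3 dpw they were -3.30, -3.02, -2.37, -3.92 and -2.77 in HFD fish, against -1.46, -0.93, -1.95, -0.59 and -2.23 in control fish. At 7 dpw they were -2.58, -3.56, -1.52, -1.78 and -1.64 in HFD fish, against -0.78, -1.34, -0.93, -1.42 and -0.82 in control fish. HFD was lower each time, by 1.22, 1.64 and 1.16, and in intact skin the difference was 0.07 and at 14 dpw -0.07. Vascular endothelial growth factor C was at -0.93, -0.36, -0.79, -0.13 and -0.35 in HFD fish at 3 dpw, against -2.25, -1.89, -1.41, -1.93 and -1.21 in control fish. At 7 dpw it was at -0.89, -0.63, -1.48, -0.96 and -1.67 in HFD fish, against -2.25, -1.91, -2.01, -2.44 and -2.28 in control fish. It was higher in HFD, by 1.23 and 1.05, without overlap at both times.

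**Figure D5:**
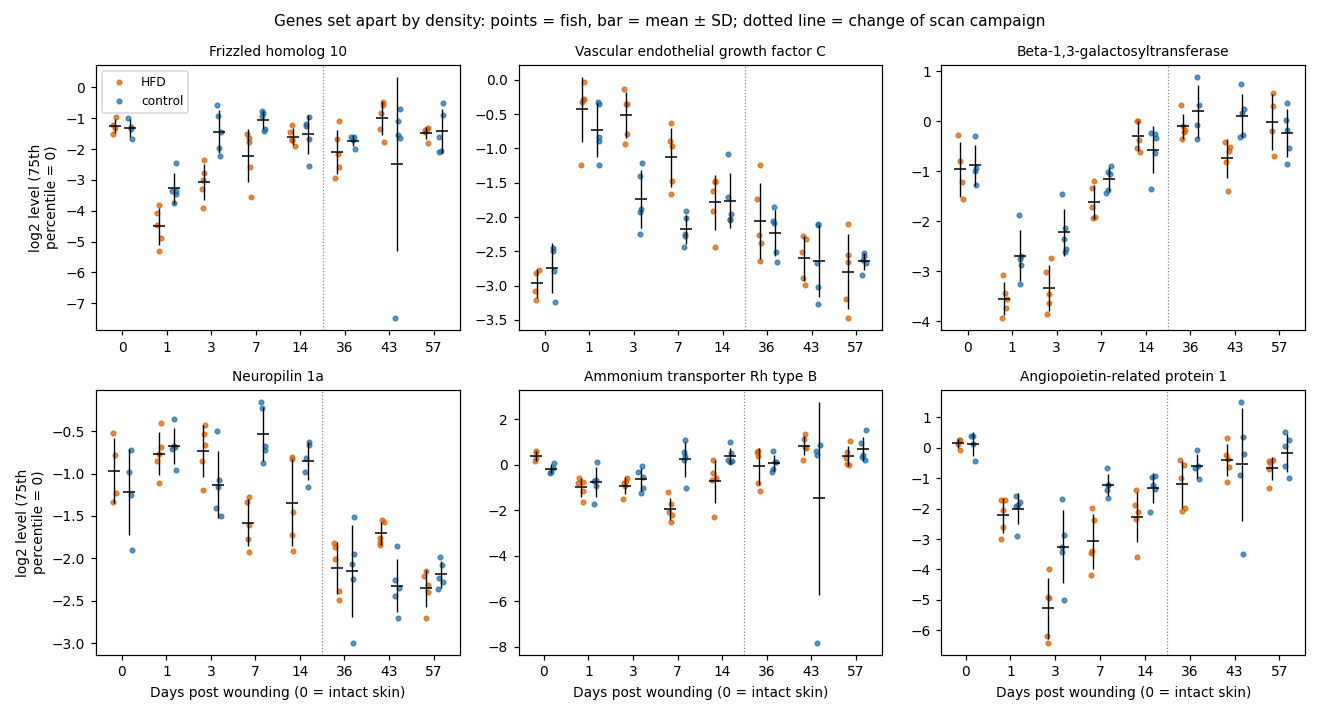
Log2 level (vertical axis, 75th percentile of the array at 0) of 6 members whose fish of both densities stood apart at 1 or more times, in each fish at 0 to 57 dpw (horizontal axis), HFD left and control right, with mean and SD as bars. Frizzled homolog 10 is lower in HFD at 1, 3 and 7 dpw and vascular endothelial growth factor C is higher in HFD at 3 and 7 dpw. The lowest points at 43 dpw for frizzled homolog 10 and ammonium transporter Rh type B, -7.47 and -7.82, are control fish 1.

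Further members that did not overlap at 2 times were beta-1,3-galactosyltransferase, neuropilin 1a and ammonium transporter Rh type B. The galactosyltransferase was at -2.74, -3.46, -3.01, -3.86 and -3.63 in HFD fish at 3 dpw and -1.45, -2.36, -2.55, -2.14 and -2.61 in control fish, lower in HFD. At 43 dpw it was at -1.39, -0.51, -0.41, -0.82 and -0.59 in HFD fish and 0.75, 0.16, -0.28, 0.25 and -0.32 in control fish, lower in HFD by 0.86, and by 0.70, short of the criteria, without control fish 1. Neuropilin 1a, a co-receptor of vascular endothelial growth factors and semaphorins, was at -1.77, -1.27, -1.93, -1.34 and -1.61 in HFD fish at 7 dpw and -0.16, -0.68, -0.73, -0.88 and -0.22 in control fish, lower in HFD by 1.05. At 43 dpw HFD was the higher, by 0.62 with all fish and 0.52 without control fish 1, both short of the criteria. Ammonium transporter Rh type B averaged -1.94 ± 0.50 in HFD fish at 7 dpw and 0.24 ± 0.77 in control fish (SD, n = 5 each), lower in HFD by 2.18. In intact skin, where the densities lay on different slides, HFD had been higher by 0.58. The gene codes for an ammonia transporter of the family of erythrocyte Rh proteins that is known from gill and skin of fishes. The differences of the 3 hemoglobin probes at 7 dpw were -0.09, -0.07 and 0.17.

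Both ligands of the EGF receptor differed between densities, in directions that were not the same at each time. HB-EGF at 1 dpw was at 0.52, -0.18, 0.26, 0.52 and -0.01 in HFD fish, against 0.88, 1.23, 1.08, 1.25 and 0.88 in control fish, lower in HFD by 0.84 without overlap. At 7 dpw it was higher in HFD, by 1.44 ± 0.49. Epigen at 7 dpw was at 4.57, 4.18, 2.13, 4.52 and 4.54 in HFD fish, against 1.25, 0.50, 0.57, 3.27 and 1.07 in control fish, a difference of 2.65 ± 0.69. HFD fish 3 and control fish 4 were each apart from their groups and overlapped. At 14 dpw epigen was higher in HFD by 2.42 ± 1.08. Angiopoietin-related protein 1 at 7 dpw was at -3.40, -3.46, -1.99, -4.19 and -2.37 in HFD fish, against -1.39, -1.64, -0.65, -1.21 and -1.23 in control fish, lower in HFD by 1.86 without overlap. At 3 dpw it was lower by 2.03.

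The C/EBP beta probe at 7 dpw was at 4.21, 4.01, 3.63 and 3.96 in 4 HFD fish and 2.18, 2.18, 2.24 and 2.80 in 4 control fish, higher in HFD by 1.61 ± 0.19 without overlap. Kazrin-A at 7 dpw was at -2.35, -3.25, -1.98, -2.41 and -2.02 in HFD fish and 3.80, -0.90, -1.87, 0.70 and -1.15 in control fish, lower in HFD by 2.52 with wide spread among control fish.

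Leukocyte markers and urokinase plasminogen activator were higher in HFD at 3 dpw. A coronin-1A probe (Ssa#GRASP223647639) was at 3.50, 3.09, 2.62, 3.24 and 3.42 in HFD fish and 1.60, 2.17, 2.26, 2.17 and 2.40 in control fish, a difference of 1.05 ± 0.21, and the other probe of coronin-1A differed by 0.84 ± 0.19. Urokinase plasminogen activator was at 5.30, 3.46, 3.77, 4.07 and 4.12 in HFD fish and 3.10, 3.36, 3.25, 3.04 and 2.89 in control fish, a difference of 1.02 ± 0.32. All 5 leukocyte markers passed the criteria at 3 dpw, with a median difference of 1.00, and none did at 7 dpw. Of all probes tested 3.44% were higher in HFD at 3 dpw and 1.56% at 7 dpw. The markers come from the list made for this contrast, so nothing is read from their count. The part of leukocytes in the other differences of 3 dpw was not tested.

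Without overlap, 3, 4 and 0 members were higher in HFD and 0, 2 and 0 lower at 36, 43 and 57 dpw. Of all probes measured in every fish 0.552%, 1.48% and 0.595% did not overlap then, in either direction. The members were listed for this contrast, so nothing is read from the counts. Angiopoietin-like 7 at 36 dpw was at 3.29, 3.44, 2.84, 3.55 and 3.40 in HFD fish and 2.60, 2.44, 2.12, 2.54 and 1.96 in control fish, higher in HFD by 0.97 without overlap. C/EBP delta-1 at 43 dpw was at 3.47, 3.55, 2.23, 2.74 and 2.34 in HFD fish and 0.75, 1.28, 1.69, 2.00 and 1.96 in control fish, a difference of 1.33 with all fish and 1.13 without control fish 1. At 57 dpw no member had groups without overlap and the 2 largest differences past the criteria were those of hemoglobin subunit alpha-4, at 1.88 and 1.69. Myoblast determination protein 1c had differed at 1 dpw, at 0.78, 1.22, 2.00, 1.06 and 2.73 in HFD fish and 0.72, 0.13, 0.55, 0.33 and 0.12 in control fish, without overlap. The mean level of the 13 probes matched to muscle, not all of them particular to it, was then -0.16 to 0.23 in HFD fish and -0.72 to 0.03 in control fish. The part of muscle in that sample was not tested.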

How the data were processed

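Skin of 78 fish was hybridised to 79 one-colour Agilent arrays (control fish 3 of 57 dpw had a repeat array, averaged with its first). The authors scanned the arrays and deposited the output of Feature Extraction 12.0.1.1, from which the intensity after background subtraction was taken. They also deposited a value table of intensity scaled per array by steps not stated, used as an alternative. Outlier spots (129 of 7956 member values) were left out. The log2 of the deposited intensity minus the 75th percentile of each array, over 14841 non-control probes, was fitted with limma 3.58.1 in R 4.3.3 over all 16 groups, after a test on simulated data. The test took in probes that stood well above background on 50% or more of the arrays of either side. Wound changes are the mean of both densities minus that of intact skin, with Benjamini-Hochberg adjusted p-values over all probes tested. HFD minus control used the fish of a day, with the log2 criterion of 0.8 and the unadjusted p of 0.05 of the study, as a description. For wound changes SE is the standard error of the fit. For HFD minus control it is the standard error of the difference of group means, from the SD of each group. SD is the spread between fish. With 1 tank per density, p-values measure only the spread between fish of a tank. Skin at a late time cannot be compared with intact skin apart from the scan campaign.

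Probe names came from the supplementary list, which names 771 probe IDs; other probes were used without names, and no probe sequence was used. Members, role groups and lists were chosen with earlier results of these data known. Named members are those fixed by name and the 3 largest called rises and falls at each of 1, 3, 7 and 14 dpw. Members without overlap at 2 or more times, those just inside the fold criterion and those past the criteria at no time were named too. Sid4, haptoglobin, coagulation factor V and a few others were chosen after their values were seen. Alternatives were quantile normalization, normexp background correction on median signals with an offset of 50, the authors' value table, other filters on dim probes, outlier spots kept, other sets of samples in the fit, the slide and the fish number as blocks, and leaving out each fish. The methods and the sample labels of the study name different RNA extraction kits.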

Additional observations from a re-analysis of the deposited data

Results flagged for a closer look

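Of 60 groups of 5 fish or fewer examined for a fish far from the rest, 4 held one, where chance gives about 1 in 20. Frizzled homolog 10 in control skin at 1 dpw was at -2.45 in fish 4, while the other control fish lay between -3.75 and -3.37. The C/EBP beta probe in control skin at 7 dpw was at 2.80 in fish 4, the others at 2.18 to 2.24. Epigen at 7 dpw was at 2.13 in HFD fish 3, with 4.18 to 4.57 in the other HFD fish, and at 3.27 in control fish 4, with 0.50 to 1.25 in the other control fish.

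In 5 cases every fish of HFD moved one way from intact skin of its density and every control fish the other way, and the difference was not tested. Slide and density cannot be told apart in that intact skin. The 59 named members were looked at for this at each of the 7 times after wounding. They were listed for differing between densities and the share of all probes was not counted, so nothing is read from the number of cases. Kazrin-A at 7 dpw stood at -1.62 in HFD and 2.25 in control. The C/EBP beta2 probe at 57 dpw stood at -0.16 in HFD and 0.41 in control. Connective tissue growth factor at 3 dpw stood at 0.41 in HFD and -0.99 in control. Ammonium transporter Rh type B at 14 dpw stood at -1.14 in HFD and 0.58 in control. Neuropilin 1a at 7 dpw stood at -0.61 in HFD and 0.68 in control.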

How the results depend on the processing

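No named member turned its sign at its main time. That is the time of its largest called change at 1 to 14 dpw, or of its largest difference past the criteria. These times were picked for their size, so a kept sign there is no evidence for other times. The balance of members higher and lower turned at 57 dpw against intact skin (28 and 25 with quantile normalization, 28 and 26 with normexp, 23 and 29 otherwise) and at 7 dpw with the replicate block (27 and 28, 39 and 31 otherwise). Between densities it turned at 57 dpw with the slide as a fixed block (1 and 4, otherwise 4 and 2). It also turned at 1 dpw with all 16 groups in 1 fit (5 and 4, otherwise 5 and 8). In the table of the authors it turned at 0 dpw (2 and 3, otherwise 2 and 0). With the value table of the authors 20 members fell at 1 dpw and 20 at 7 dpw (31 each otherwise), and at 36, 43 and 57 dpw 61, 62 and 53 were higher and 8, 8 and 7 lower. Between 36 and 57 dpw 2 members rose in that table. Its median of all probes was 0.01, 0.21, 0.42 and 0.38 at 1, 3, 7 and 14 dpw and 0.97, 0.95 and 0.93 later. Over all probes tested it called 3577, 5169, 6462, 6151, 9638, 9647 and 9623 higher and 2549, 2452, 1527, 1677, 753, 681 and 646 lower from 1 to 57 dpw, where the values used here gave 2643, 3297, 3043, 2972, 3035, 2681 and 2699 higher and 4519, 5025, 4468, 4221, 4978, 4849 and 4742 lower. Quantile normalization gave 2980, 3862, 3817, 3746, 4315, 3979 and 3947 higher and 3826, 4026, 3527, 3319, 3491, 3298 and 3278 lower, and normexp 2983, 3831, 3764, 3714, 4290, 3995 and 3998 higher and 3835, 4066, 3619, 3459, 3418, 3211 and 3139 lower. With the values of the authors 2 early changes of named members turned their sign (beta-1,3-galactosyltransferase at 7 dpw, 0.16 in place of -0.47, and ATF-3 at 14 dpw) and 5 of 40, 5 of 35 and 8 of 35 at 36, 43 and 57 dpw. None did with quantile normalization or normexp. With the values of the authors the calls lost, these included, numbered 6 of 54, 3 of 51, 7 of 49 and 4 of 41 at 1, 3, 7 and 14 dpw, 10, 9 and 11 at the late times and 6 of 14 between 36 and 57 dpw, against 0 to 3 at each time with quantile normalization or normexp. With only the 2 days in the fit 9 members fell between 36 and 57 dpw, in place of 16.

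Members past the criteria between densities numbered 1, 4, 17 and 5 at 0, 1, 3 and 36 dpw with normexp on medians (2, 13, 31 and 12 otherwise). They numbered 5 at 0 dpw in the table, and 4 at 0 dpw and 29 at 43 dpw with all 16 groups in 1 fit. At 57 dpw 3 passed when each array had to show the probe well above background. With the slide as a fixed block 20 passed at 36 dpw. That block could not be fitted at 0 dpw or for the late times against intact skin. For 1, 3, 7 and 14 dpw its counts are not given, since only 1 HFD and 1 control fish share a slide. Leaving out each fish in turn gave 3 to 13 at 0 dpw and 10 to 19 at 36 dpw. The counts at 0 dpw were 13 without HFD fish 1, 7 without HFD fish 2, 4 without HFD fish 4 and 4 without control fish 6, and at 36 dpw 19 without control fish 4.

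The fish number did not pair the fish: the correlation of deviations between fish of the same number was -0.585 to 0.394. With the replicate block 16 members, in place of 28, were higher than intact skin at 43 dpw, and the other counts stayed within 1.5 times (40 higher and 23 lower at 1 dpw). At 0 dpw the densities share no number. Of the 56 differences between densities of named members, 32 no longer passed the criteria with the slide as a fixed block. Dim probes limit the smallest levels: angiotensinogen was not well above background on 5 of 8 arrays of intact skin.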
